A study of Mus musculus with 6 samples.

Results

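Of the 169872 regions of open chromatin obtained by merging the peaks of 6 Omni-ATAC-Seq libraries of neonatal mouse heart nuclei, 1837 held a peak in both Input libraries and in none of the 4 Myc and PCM1 libraries, which is 1.08% of all merged regions. These regions, called Input-only here, were chosen by the peak calls themselves, so their presence in Input and absence elsewhere is the rule and not a result. The regions of both Myc libraries alone numbered 3132, those of both PCM1 libraries alone 431, and those of all 6 libraries 48861.

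The libraries were made from 50000 nuclei each of postnatal day 1 (P1) mouse hearts, with 2 biological replicates per group, and all nuclei had passed a 2.2 M sucrose cushion. Input nuclei came from WT hearts and had no immunoprecipitation. Myc nuclei came from Nkx2-5 Cre/+; R26R Sun1-Myc-Egfp/+ hearts and were pulled down with a Myc antibody by magnet-assisted nuclei immunoprecipitation (MAN-IP), and PCM1 nuclei came from WT hearts and were pulled down with a PCM1 antibody. The groups are limited as models in that the cushion alone was used for Input, that the Nkx2-5 lineage also holds smooth muscle and endothelial cells, whose nuclei the 2.2 M cushion was meant to keep out, and that the tagged genotype and the Myc antibody occur only together. Antibody handling, genotype and library depth therefore cannot be told apart in a difference between Input and Myc.

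In ATAC-Seq a transposase cuts DNA that is not wrapped in nucleosomes and leaves sequencing adapters there, so that active promoters and enhancers appear as peaks. Enhancers lie mostly in introns and between genes, and their activity differs between cell types more than that of promoters. In heart muscle cells (cardiomyocytes, CMs) many enhancers are bound by NKX2-5 and GATA4, transcription factors of heart development, whereas CTCF binds insulators and the anchors of chromatin loops. PCM1, a protein of centriolar satellites, surrounds the nucleus of CMs and serves as a handle for pulling them down.

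The sequences of 6 Input-only regions are shown to make visible what was called: the strongest by its rank in the weaker Input library (near Pcdh7), the 4 of the 10 strongest that hold a match to the NKX2-5 or GATA motif, and the strongest one at a transcription start site (TSS; near Tmem88b). Each line gives 200 bases around the summit of the stronger Input peak, on the plus strand of mm10, 5′ to 3′, named by the nearest protein-coding gene. Capitals mark matches to the motifs described with the motif results, and a window without capitals held none of the 13.
Pcdh7 (chr5:57696573-57696772): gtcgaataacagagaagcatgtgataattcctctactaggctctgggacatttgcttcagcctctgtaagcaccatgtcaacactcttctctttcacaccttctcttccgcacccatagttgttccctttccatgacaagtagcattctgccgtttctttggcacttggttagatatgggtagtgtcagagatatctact
Ttc28 (chr5:111057226-111057425): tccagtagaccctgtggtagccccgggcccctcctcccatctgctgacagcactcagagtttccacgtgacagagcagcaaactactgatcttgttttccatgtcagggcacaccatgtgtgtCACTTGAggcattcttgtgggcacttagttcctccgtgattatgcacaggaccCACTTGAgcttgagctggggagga
Stk35 (chr2:129885584-129885783): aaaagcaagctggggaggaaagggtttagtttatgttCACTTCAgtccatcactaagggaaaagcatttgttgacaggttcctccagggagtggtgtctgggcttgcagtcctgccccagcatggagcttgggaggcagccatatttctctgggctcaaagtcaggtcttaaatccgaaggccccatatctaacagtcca
Gabrg3 (chr7:57356680-57356879): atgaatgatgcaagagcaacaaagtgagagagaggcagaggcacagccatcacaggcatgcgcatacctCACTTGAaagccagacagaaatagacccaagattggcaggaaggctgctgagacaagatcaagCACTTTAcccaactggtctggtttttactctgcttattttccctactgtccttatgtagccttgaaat
5530400C23Rik (chr6:133341923-133342122): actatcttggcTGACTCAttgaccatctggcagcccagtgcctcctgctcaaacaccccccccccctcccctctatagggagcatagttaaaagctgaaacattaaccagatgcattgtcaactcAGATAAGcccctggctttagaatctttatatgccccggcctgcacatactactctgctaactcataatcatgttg
Tmem88b (chr4:155785963-155786162): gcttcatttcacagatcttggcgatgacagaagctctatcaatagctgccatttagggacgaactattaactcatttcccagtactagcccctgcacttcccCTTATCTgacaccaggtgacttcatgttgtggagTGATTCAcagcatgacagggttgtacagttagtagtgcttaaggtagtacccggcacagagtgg

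The Ttc28 window held 2 matches to the NKX2-5 motif, both reading CACTTGA. The Gabrg3 window also held 2, CACTTGA and CACTTTA, and the Stk35 window held 1, CACTTCA. The window near 5530400C23Rik held a GATA match, AGATAAG, and an AP-1 match, TGACTCA. The Tmem88b window held a GATA match on the minus strand, read as CTTATCT on the plus strand, and the AP-1 match TGATTCA. Each of these 6 windows occurred once in the genome. A match is a stretch of letters and does not show that the factor was bound.

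The Input-only regions were the rare end of a gradient of sharing. A peak of both Input libraries was found in 69517 merged regions. Of these, 1837 (2.64%) had a peak in 0 of the 4 other libraries, 2927 (4.21%) in 1, 6394 (9.20%) in 2, 9498 (13.7%) in 3 and 48861 (70.3%) in all 4. Where exactly 1 other library had a peak, it was Myc replicate 1 in 932 regions, Myc replicate 2 in 1047, PCM1 replicate 1 in 486 and PCM1 replicate 2 in 462. Both Myc libraries, the deeper ones, thus supplied more of these regions than either PCM1 library.

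The replicates of Input were far apart in depth, and their region counts differed likewise. The genome-wide background, the coverage that the peak caller took as chance level and here the measure of depth, was 3.96 reads in Input replicate 1 and 1.02 in Input replicate 2. It was 1.44 in both Myc libraries, and 0.977 and 0.903 in PCM1. Input replicate 1 alone held 19941 regions that no other library had, against 2205 for Input replicate 2. Its pairs with Myc libraries, 4923 and 5124 regions of no other library, outnumbered the 1837 of the Input pair, as did its pairs with PCM1 libraries (2186 and 2048). The pairs of Input replicate 2 with the other 4 libraries held between 112 and 262 regions, all below the Input pair. The part of depth in these counts was not tested separately from the groups.

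**Figure D1:**
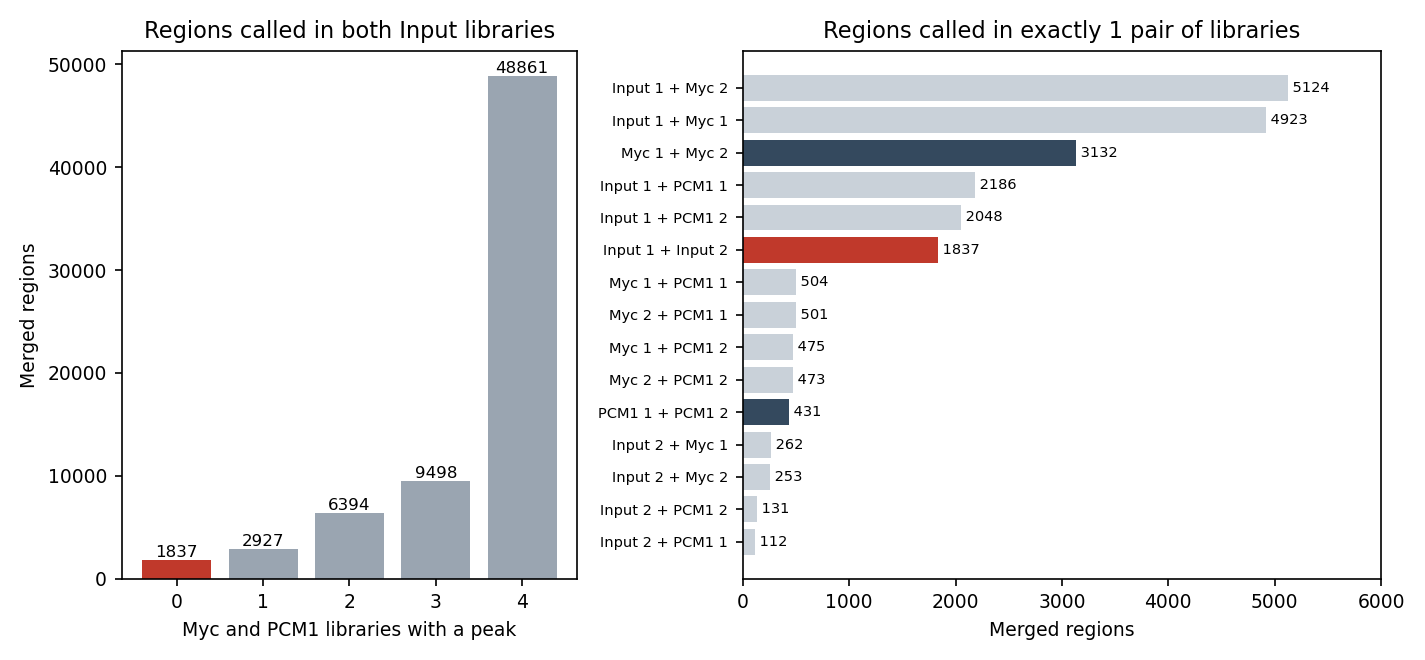
Left, number of merged regions with a peak in both Input libraries (y axis) by the number of Myc and PCM1 libraries that also had a peak (x axis), with the Input-only regions in red. Right, number of regions called in exactly 1 pair of libraries (x axis) for each of the 15 pairs, with the Input pair in red and the Myc and PCM1 replicate pairs in dark blue; the Input pair, with 1837, lies below all 4 pairs of Input replicate 1 with a Myc or PCM1 library and above all 4 pairs of Input replicate 2 with one.

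Most Input-only regions were weak peaks in both libraries. Strength is given as the rank percentile of −log10 q within a library's own peak list, where 100 is the strongest peak. The median was 29.0 in Input replicate 1, with a range from 0.297 to 83.2, and 16.3 in Input replicate 2, with a range from 0.0179 to 71.3. The weaker of both ranks had a median of 12.9. In Input replicate 1, 264 regions (14.4%) ranked above the 50th percentile of the list, in Input replicate 2 only 50 (2.72%), and 28 (1.52%) did so in both. None ranked above the 75th percentile in Input replicate 2, and 10 did in Input replicate 1.

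The other values of the peaks gave the same picture. The fold enrichment over the local background had a median of 4.15 in Input replicate 1 and 4.90 in Input replicate 2, against 5.65 and 6.92 over the whole lists. The median −log10 q was 8.57 and 5.16, against 17.4 and 11.7. The pileup, the number of reads over the summit, had a median of 26.0 and 11.0, against 40.0 and 20. The length of Input-only regions had a median of 328 bp (range 200 to 1080), against 377 bp for all merged regions. It was 304 bp in regions of both Myc libraries only and 320 bp in those of both PCM1 libraries only. A shorter length than the merged regions as a whole was thus shared by the 3 replicate pairs. All of these values belong to the calls that chose the regions and are a description only.

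**Figure D2:**
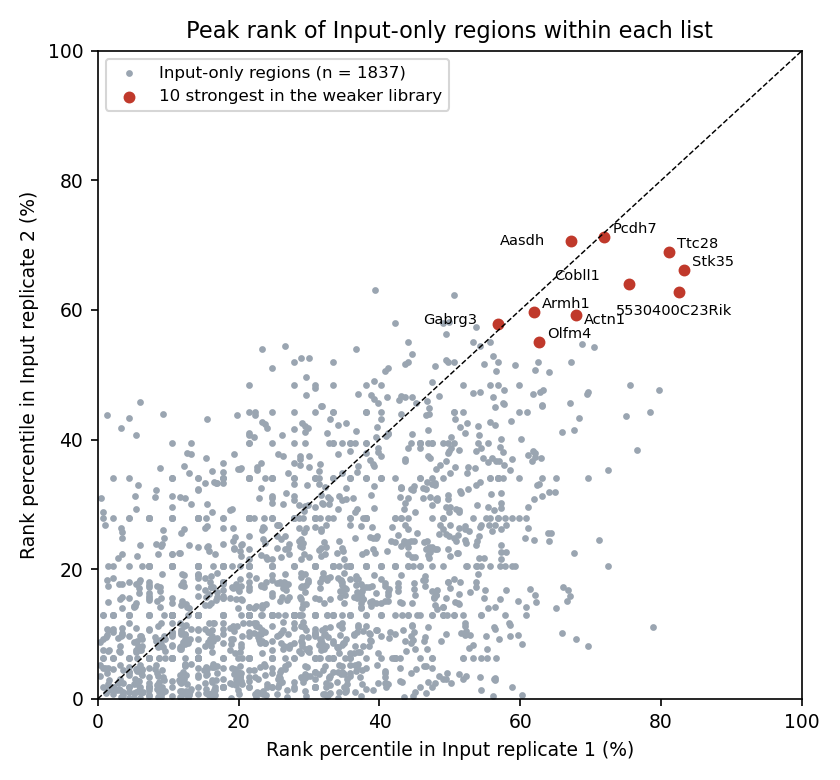
Rank percentile of each of the 1837 Input-only regions in Input replicate 1 (x axis) and Input replicate 2 (y axis), with 100 the strongest peak of a list. Red points are the 10 regions with the highest rank in their weaker library, labelled by nearest gene, and the dashed line marks equal ranks; 1355 regions (73.8%) lie below it.

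The summits of both Input libraries lay within 50 bp of each other in most regions. The rule favours this, since both peaks had to fall in 1 merged region, and no other set was measured. The summits were a median of 32.0 bp apart, with 1155 regions (62.9%) within 50 bp and 1546 (84.2%) within 100 bp. The largest distance was 680 bp. In 5 regions an Input library had more than 1 peak.

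Of the 10 strongest regions by the weaker rank, 5 lay in introns, 3 in distal intergenic DNA and 2 within 3 kb of the start of some annotated transcript. The first, at chr5:57696509-57696934, was 21.3 kb upstream of Pcdh7, which encodes a protocadherin of cell adhesion. It ranked at 71.9 in Input replicate 1 and 71.3 in Input replicate 2, with fold enrichments of 11.9 and 12.8 and pileups of 58 and 25 reads. Both libraries thus held it among the stronger peaks, and the nearest Myc or PCM1 peak was 18.1 kb away. It counted as a promoter because another annotated transcript started within 3 kb.

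Ttc28 held the second in an intron at chr5:111057133-111057555, with ranks of 81.1 and 68.9 and fold enrichments of 12.9 and 10.5. Its own TSS, 178 kb away, had a peak in all 6 libraries. The region nearest to Stk35, a protein kinase gene, lay in intergenic DNA 85.2 kb downstream of its TSS at chr2:129885515-129885969 and had the highest rank of any Input-only region in Input replicate 1, 83.2, with 66.2 in Input replicate 2. The region nearest to 5530400C23Rik at chr6:133341751-133342230 had the highest fold enrichment in Input replicate 1, 16.7, with 10.4 in Input replicate 2. It was the most isolated of the 10, with the nearest Myc or PCM1 peak 236 kb away.

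Gabrg3, which encodes a GABA receptor subunit, held a region in an intron at chr7:57356605-57356946, with ranks of 56.8 and 57.9. The region nearest to Aasdh, in an intron of C530008M17Rik at chr5:76837056-76837365, ranked at 67.2 and 70.6. The region nearest to Olfm4, a secreted glycoprotein gene, lay 996 kb from its TSS at chr14:80979518-80980030, with ranks of 62.6 and 55.0. For these 3 regions no Myc or PCM1 library had a peak within 1 kb.

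For 2 of the 10 the Input-only call lay beside a peak of another library. The region in an intron of Cobll1 at chr2:65227863-65228334 ranked at 75.4 and 64.0, but a peak of 1 Myc or PCM1 library lay 109 bp away. The region in an intron of Actn1, the gene of the actin crosslinker alpha-actinin-1, at chr12:80243330-80243763 ranked at 67.9 and 59.2, and all 4 Myc and PCM1 libraries had a peak within 1 kb, the nearest 299 bp away. The last of the 10, in the Rnf220 gene at chr4:117274757-117275068 and nearest to Armh1, ranked at 61.9 and 59.7.

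A peak of the strength seen in Input was set against what the shallower libraries could call. The pileup and the local background of each region in an Input library were scaled by the ratio of genome-wide backgrounds to the depth of each Myc and PCM1 library and compared with the lowest −log10 p that was called there, between 3.04 and 3.17. Scaled from Input replicate 2, 1837 regions passed in both Myc libraries, 1836 in PCM1 replicate 1 and 1834 in PCM1 replicate 2. This follows in part from the rule, since Input replicate 2 was nearly as shallow as PCM1 and the regions were called in it. Scaled from Input replicate 1, 1535 (83.6%) and 1516 (82.5%) passed in the Myc libraries, but only 1027 (55.9%) and 934 (50.8%) in the PCM1 libraries. In all 4 libraries, whichever Input library was scaled, 894 regions (48.7%) passed. The scaled values come from the calls that chose the regions, and the part of depth in the missing peaks was not tested.

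**Figure D3:**
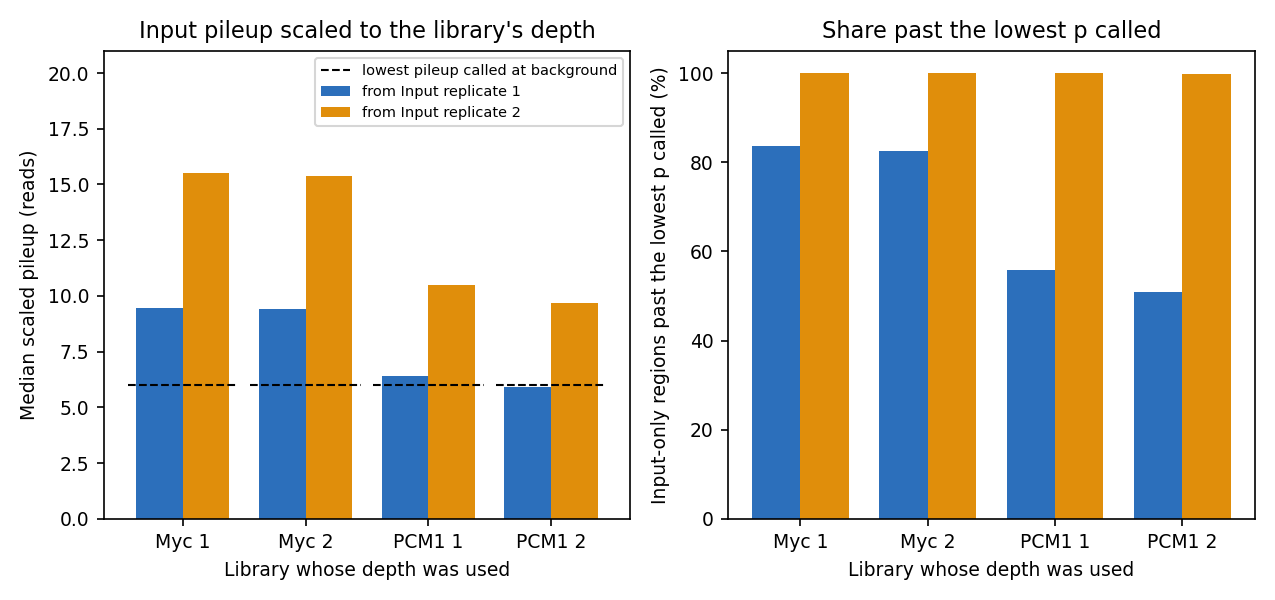
Left, median pileup of the 1837 Input-only regions in reads (y axis) after scaling from Input replicate 1 (blue) or Input replicate 2 (orange) to the depth of each Myc and PCM1 library (x axis); dashed lines mark the lowest pileup called at the genome-wide background, 6 reads in each. Right, percent of the regions (y axis) whose scaled values passed the lowest p called there, which from Input replicate 1 runs from 50.8 to 83.6% and from Input replicate 2 from 99.8 to 100%.

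The Input libraries themselves did not give the same scaled height. At the depth of Input replicate 2, the pileup of Input replicate 1 had a median of 6.73 reads, against the 11.0 reads measured in Input replicate 2. The ratio of measured to scaled pileup had a median of 1.58 in Input-only regions and 1.06 in the 48861 regions of all 6 libraries. In 1714 regions (93.3%) Input replicate 2 stood above the scaled value. A region had to clear the threshold of the shallow library to be chosen, so this ratio is touched by the rule and no test was made on it.

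The distance of Input-only regions to other peaks is given as a description. The rule excludes overlapping peaks, and the distance was not measured for another set of regions. The gap to the nearest Myc or PCM1 peak had a median of 2782 bp and ran from 16 to 273317 bp. Such a peak lay within 1 kb of 441 regions (24.0%, 95% exact binomial interval 22.1 to 26.0), and peaks of all 4 libraries lay within 1 kb of 123 (6.70%). By library, 277 and 300 regions had a peak of Myc replicates 1 and 2 within 1 kb, and 229 and 212 one of PCM1 replicates 1 and 2. In 264 regions (14.4%) no Myc or PCM1 peak was within 10 kb. The nearest region of all 6 libraries was a median of 9940 bp away. The Input-only regions themselves were scattered, a median of 298883 bp from each other, and 48 (2.61%) lay within 10 kb of another one.

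**Figure D4:**
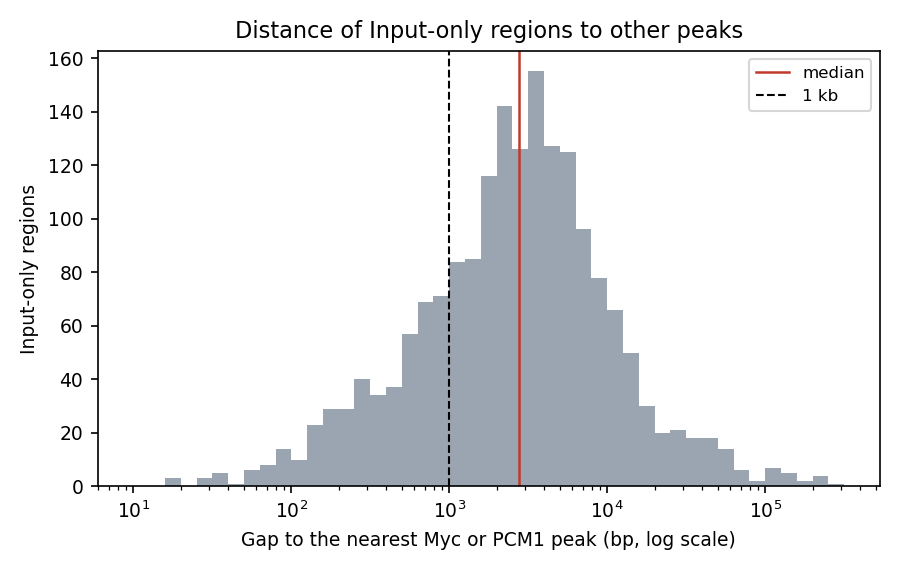
Number of Input-only regions (y axis) by the gap to the nearest Myc or PCM1 peak in bp (x axis, log scale). The red line marks the median, 2782 bp, and the dashed line 1 kb, below which 441 of the 1837 regions lie.

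Regions just inside and just outside the rule show how thin its edge was. The weakest inside lay near Mn1, with a −log10 q of 4.98 in Input replicate 1 and 1.57 in Input replicate 2, near Dtx4 with 5.95 and 1.96, and near Tmem64 with 5.32 and 1.99. Among those closest to another library's peak were regions near 4931429L15Rik and 2010111I01Rik, 18 and 19 bp from a PCM1 replicate 1 peak. Just outside, a region near 4930518I15Rik was kept out by a Myc replicate 1 peak with a −log10 q of 1.36. Regions near Parp4 and Ptgfrn were kept out by Myc replicate 2 peaks with 1.38 each. Over all 2927 regions with exactly 1 other library, the median −log10 q in that library was 5.46.

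Like the merged regions as a whole, most Input-only regions lay in introns or between genes. By the strongest summit, 814 (44.3%) were in introns, against 39.5% of all merged regions, 515 (28.0%, against 27.5%) in distal intergenic DNA and 388 (21.1%) within 3 kb of the start of an annotated transcript, counted as promoters. A further 57 (3.1%) lay just downstream of a gene, 33 (1.80%) in other exons, 30 (1.63%) in 3′ UTRs and 0 in 5′ UTRs. The promoter share was 27.1% over all merged regions, 20% in regions of both Myc libraries only, 22.7% in those of both PCM1 libraries only and 42.2% in regions of all 6 libraries. Only the last set stands well apart from the Input-only regions, and no test was made between the sets.

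At the starts of protein-coding genes themselves Input-only regions were few. Within 1 kb of such a TSS lay 35 (1.91%), against 8.64% of all merged regions and 22.6% of the regions of all 6 libraries. The shares in the Myc and PCM1 pairs were 2.87% (90 of 3132) and 3.48% (15 of 431). The exact 95% binomial interval of the Input-only share, 1.33 to 2.64%, covers its own counting error only. No test was made between these sets. More than 50 kb from any protein-coding TSS lay 799 Input-only regions (43.5%, against 41.2% of all merged regions), and 1087 (59.2%) were inside a protein-coding gene. The share of merged regions that were Input-only varied little by chromosome, from 0.849% on the X chromosome (27 regions) to 1.27% on chromosome 15. On the Y chromosome 0 of 27 merged regions were Input-only.

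The 8 strongest regions at a protein-coding TSS are given by gene. None of these genes had a TSS peak in all 6 libraries, which the rule favours. Some of the regions still lay beside other peaks. At Ugt1a7c the nearest Myc or PCM1 peak was 197 bp away, and 3 libraries had one within 1 kb. At Mfap2 and Nxph4, 1 library had one within 1 kb, at 310 and 506 bp. The remaining regions had no such peak within 1 kb. The region at Tmem88b, chr4:155785904-155786214, lay 189 bp upstream of the TSS and ranked at 62.7 in Input replicate 1 and 47.3 in Input replicate 2. Its pileups, 97 and 30 reads, were high, but its fold enrichments of 4.16 and 4.78 were modest because the local background was high. The region at Nxph4, which encodes the neuronal secreted protein neurexophilin 4, lay at chr10:127534392-127534863 and ranked at 24.0 and 41.8. At Mfap2, the gene of a microfibril protein of the extracellular matrix, the region at chr4:141010455-141010797 ranked at 67.6 and 22.6.

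The remaining TSS regions were weaker in at least 1 library. At C7, a complement component gene, the region at chr15:5063676-5063985 ranked at 30.8 and 20.5. At Cntnap3, chr13:64903904-64904120, the ranks were 17.8 and 27.8, and no Myc or PCM1 peak was closer than 176 kb. Ugt1a7c, a gene of glucuronidation, had its region at chr1:88094147-88094513 with ranks of 52.4 and 20.5. Its window had 3 matches in the genome, itself included, at 95% identity over 90% of its length. Reads there may be hard to place, which was not measured. Fam25c (chr14:34354981-34355278) ranked at 15.3 and 27.8, and Ms4a10 (chr19:10974295-10974604) at 37.3 and 14.1.

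The Input-only regions spread over many genes. They were nearest to 1611 of 21951 protein-coding genes (7.34%). Of these genes, 1417 were nearest to 1 region and 24 to 3 or more. A peak within 1 kb of the TSS in all 6 libraries was found for 1107 of the 1611 (68.7%), against 56.1% of all protein-coding genes. Most of these nearest genes thus had a start that was open in every group. The share among genes nearest to any merged region was not computed, so the difference is not read as a trait of the Input-only regions.

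Several genes were nearest to more than 1 region. Stim2, a calcium sensor of the endoplasmic reticulum, was nearest to 5 among its 70 merged regions, 1 in an intron and the rest from 201 to 1502 kb beyond the TSS. Their weaker ranks ran from 7.24 to 33.5. Slc8a1, the sodium-calcium exchanger that removes calcium from CMs, was also nearest to 5, among 49 merged regions. They lay within 168 kb on chromosome 17, 3 of them in introns, with weaker ranks from 3.50 to 20.5. The strongest in Input replicate 1 was 50.6 kb upstream, with ranks of 57.2 and 20.5. Each of the 5 had its nearest Myc or PCM1 peak between 1.02 and 7.50 kb away.

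A further 4 genes were nearest to 4 regions each. Runx1, a transcription factor of blood cell formation, had 4 of 56 merged regions, from 149 kb inside the gene to 217 kb upstream. Their ranks in Input replicate 1 were 32.4, 17.8, 55.0 and 27.9, and in Input replicate 2 they were 8.23, 20.5, 16.8 and 20.5. Runx1 was the only one of the 8 genes named here without a TSS peak in all 6 libraries. Tns3, a focal adhesion protein, had 4 of 86 regions, all in its introns, with weaker ranks from 6.24 to 29.7. Cul1, the scaffold of a ubiquitin ligase, had 4 of 38, of which 3 lay in introns of Cntnap2, and Tbc1d22a had 4 of 66.

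Dap and Sox11 followed with 3 regions each, chosen from 18 genes with that number by the summed rank. The 3 regions nearest to Dap ranked at 28.9, 57.7 and 56.9 in Input replicate 1 and at 18.8, 47.7 and 36.7 in Input replicate 2. The regions nearest to Sox11, a transcription factor of neural and heart outflow development, lay from 452 kb on one side to 414 kb on the other. Over the 8 genes, Input-only regions made up between 4.65 and 10.5% of the merged regions nearest to each. These genes were named for their counts, so the counts are no result about them.

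Genes that mark heart cell types were nearest to Input-only regions about as often as to other regions. Of the 1837 regions, 16 (0.871%) had a marker gene nearest, against 0.870% of all merged regions, 0.99% in the Myc pair and 1.62% in the PCM1 pair. The lists held 12 genes each for 9 cell types or states. In each library 9 or 10 of 12 cardiomyocyte genes had a peak within 1 kb of the TSS, though Nkx2-5 and Tnni3 had none in any. Proliferation genes had one at 12 of 12 in each, so such counts do not single out a cell type. Over all protein-coding genes, 56.1% had such a peak in all 6 libraries. For fibroblast genes the number was 8 to 11, for endothelial genes 9 or 10, for smooth muscle and pericyte genes 11 or 12, and for immune genes 1 to 4. TSS peaks of fibroblast, endothelial and smooth muscle genes were thus about as frequent as those of CM genes. Immune genes with a TSS peak numbered 4 for Input replicate 1, 3 each for Input replicate 2 and Myc replicate 1. Myc replicate 2 had 2, while each PCM1 library had 1. Fibroblast genes with one numbered 8 for each PCM1 library, 9 for Input replicate 2, 11 for Input replicate 1 and each Myc library. Other lists were ordered otherwise. Neuronal and Schwann genes with one numbered 6 for each PCM1 library and 5 for each Input and Myc library. Epicardial genes with one numbered 8 for Input replicate 2, 9 for each PCM1 library and 10 for the rest. Erythroid genes with one numbered 4 or 5 of the 11 annotated. The part of group or depth in these counts was not tested.

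Cardiomyocyte genes were nearest to 3 Input-only regions. Ryr2, the calcium release channel of the sarcoplasmic reticulum, had 2 in the gene body, 521 and 535 kb from the TSS, with ranks of 31.9 and 18.8 in Input replicate 1 and 0.672 and 2.43 in Input replicate 2. Both were thus among the weakest calls of Input replicate 2. Ttn, the gene of the sarcomere spring titin, had 1 at chr2:76931118-76931471, with ranks of 42.9 and 31.1.

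Endothelial genes were nearest to 4. The region in an intron of Tek, an angiopoietin receptor, at chr4:94767046-94767388 ranked at 41.0 and 40.6 and had a peak of 1 other library 604 bp away. The regions at Kdr (3.58 kb inside the gene), Flt1 and Eng, receptors of vascular growth, ranked below 25 in Input replicate 1 and below 10 in Input replicate 2. Fibroblast genes were nearest to 3, at Fn1, Tcf21 and Postn, with weaker ranks of 10, 7.38 and 12.9. The Tcf21 region had peaks of all 4 Myc and PCM1 libraries within 1 kb.

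The other lists had 2 regions or fewer each. At Lyz2, the lysozyme gene of macrophages and neutrophils, the region at chr10:117282026-117282379 covered bases next to the TSS, 46 bp from the summit, and ranked at 20.5 and 2.24. The nearest Myc or PCM1 peak was 6.67 kb away, and Input replicates were the only libraries with a TSS peak there. Of the other immune genes, Ptprc, Cd68, Adgre1, Csf1r, Fcgr1, Itgam and Cx3cr1 had a TSS peak in 0 of the 6 libraries. Cd14 had one in all 6, Spi1 in 3 with both Input libraries among them, Laptm5 in 2 and C1qa in 1. Ngfr and Phox2a, genes of neurons and Schwann cells, had 1 each, with ranks of 37.4 and 15.9 near Ngfr and of 25.9 and 18.1 near Phox2a. Mki67, a proliferation marker, had 1 at a distance of 273 kb, with ranks of 68.3 and 43.4. Pdgfrb and Sema3d had 1 each, with weaker ranks of 2.91 and 6.23, and erythroid genes had 0. The part of admixed cell types in the calls was not tested.

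Input-only regions had the median GC content of all merged regions but fewer CpG dinucleotides. The mean CpG count per 200-bp window was 3.15, against 4.24 in all merged regions and 7.21 in regions of all 6 libraries. It was 2.87 in the Myc pair and 2.81 in the PCM1 pair. In 200 bases around the summit the GC content had a median of 51.0%, as in all merged regions, against 45.5% in the Myc pair, 52.0% in the PCM1 pair and 54.5% in regions of all 6 libraries. Repeats (soft-masked bases) took up a mean of 9.99%, against 10.1% in all merged regions and 13.6% in the Myc pair. A second copy in the genome, at 95% identity over 90% of the window, was found for 22 Input-only regions (1.2%), 43 of the Myc pair (1.37%) and 2 of the PCM1 pair (0.464%). Windows without any soft-masked base made up 51.3% of the Input-only regions and 50.2% of all merged regions.

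Motif letters did differ in share. The searched words were, on both strands, TNAAGTG for NKX2-5, TGATAAG or AGATAAG for GATA factors, TGANTCA for AP-1, GGAATG for TEAD, CNGGAAGT for ETS, CAGCTG for the E-box of basic helix-loop-helix factors, TNAAGGTCA for ESRR, TGTGGTT for RUNX, ACAATGG for SOX and GGGCGG for KLF/SP, with MEF2 and CTCF searched by their consensus. The GATA words share GATAAG, and no other word contains another. Of the 1837 Input-only regions, 1226 (66.7%) held at least 1 of the 13, against 66% of all merged regions.

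The NKX2-5 word was found in 289 Input-only regions (15.7%) and in 10.9% of all merged regions. It was found in 10.4% of the Myc pair, 7.19% of the PCM1 pair and 9.29% of the regions of all 6 libraries. A GATA word of either form was found in 189 (10.3%), against 7.16, 5.81, 4.87 and 6.78% in the same sets. With regions chosen without Input replicate 1 or without Input replicate 2, the difference from all merged regions was 0.821 or 0.885 percentage points for GATA in place of 3.12, and 2.91 or 2.64 for NKX2-5 in place of 4.84. Both words were found in 28 Input-only regions, and their joint share over all merged regions was not computed. The CTCF motif was found in 13 (0.708%), against 3.17% of all merged regions, 7.47% of the Myc pair, 0.232% of the PCM1 pair and 3.95% of the regions of all 6 libraries.

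The NKX2-5 share fell with each further library that shared the peak. From 0 to 4 other libraries it was 15.7, 14.2, 11.9, 11.4 and 9.29%. The GATA share was 10.3, 8.95, 7.23, 7.61 and 6.78%, lower at the end but not in order, and the CTCF share was 0.708, 1.54, 5.91, 5.87 and 3.95%, highest with 2 other libraries. The promoter share rose along the same steps from 21.1 to 42.2%, and the median rank in Input replicate 1 from 29.0 to 81.2, and the part of place and strength in the motif shares was not tested. Away from promoters the NKX2-5 share was 16.8% in Input-only regions and 11.9% in all merged regions, and the GATA share 11.0 and 7.96%. Among the Input-only regions, the NKX2-5 share was 13.0, 14.4, 16.3 and 19.2% in 4 equal groups from the lowest to the highest weaker rank, and the GATA share was 12.2, 8.93, 9.15 and 10.9%, without such an order.

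Regions of a single library gave lower NKX2-5 shares than the Input pair: 13.3% in Input replicate 1, 12% in Input replicate 2, 10.8 and 11.0% in Myc, and 10.3 and 10.4% in PCM1. CTCF was at 0.752 and 0.544% in the single Input libraries, at 2.31 and 2.02% in Myc and at 0.399 and 0.262% in PCM1. The low CTCF share was therefore seen in Input and PCM1 alike, whereas the NKX2-5 share was highest in Input.

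**Figure D5:**
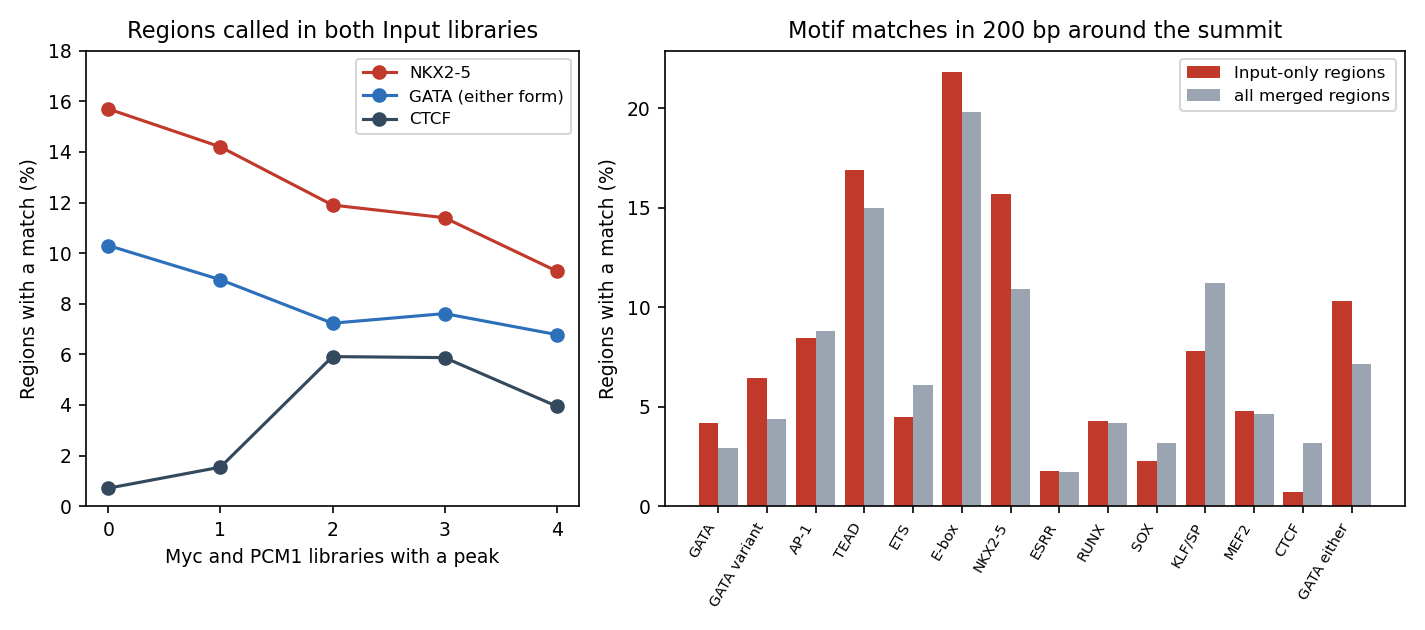
Left, percent of regions called in both Input libraries with an NKX2-5, GATA or CTCF match (y axis) by the number of Myc and PCM1 libraries that also had a peak (x axis), where 0 stands for the Input-only regions. Right, percent with each motif in the 1837 Input-only regions (red) and in all 169872 merged regions (grey); the NKX2-5 bars stand at 15.7 and 10.9%, and the CTCF bars at 0.708 and 3.17%.

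Of the other motifs, KLF/SP had the widest gap, with 7.78% in Input-only regions against 11.2% in all merged regions, wider than that of GATA or CTCF. The E-box was found in 21.8% of Input-only regions and 19.8% of all merged regions, TEAD in 16.9 and 15%, AP-1 in 8.44 and 8.79%, MEF2 in 4.79 and 4.64%, RUNX in 4.30 and 4.18%, and ESRR in 1.74 and 1.70%. ETS, with 4.46 against 6.10%, and SOX, with 2.29 against 3.16%, were also less frequent in Input-only regions. KLF/SP, a GC-rich word of promoters, reached 23.7% in the regions of all 6 libraries. With 2 Input libraries of very different depth and no independent set of regions, none of these differences was tested.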

How the data were processed

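Omni-ATAC-Seq libraries of 3 groups with 2 biological replicates each were analysed from the peak lists deposited by the authors. The authors trimmed the reads, mapped them to mm10 with Bowtie2 2.3.3.1, marked duplicates with Picard 2.2.1, removed blacklisted regions, shifted alignments for Tn5 and called peaks with MACS2 (q-value of 0.05) in each library. The deposited columns are the authors' score, their fold enrichment of summit pileup over local background (a ratio), and their −log10 p-value and −log10 q-value. Read counts were not used here. Values were ranked within a list, since depth differs, and a missing peak says only that none was called at that depth.

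Peaks were merged with bedtools 2.31.1 (any overlap or contact). Pileup and background were solved from the fold and −log10 p with the pseudocount of 1 of MACS2, and came out whole within 0.02 in nearly all peaks. The most frequent background served as depth. Depth was also used to scale pileups between libraries. Regions were annotated with GENCODE M21 (GRCm38, also called mm10) by the order of categories of ChIPseeker, with promoters of 3 kb. Windows of 200 bp were read from the RefSeq GRCm38 genome, and second copies were found with blastn 2.17.0. Values were computed in Python 3.11.15 with scipy 1.17.1, and the computations were tested on simulated data.

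Named were the 10 regions with the highest rank in the weaker Input library, the 8 genes nearest to most regions, all regions nearest to a marker gene, and the 8 strongest within 1 kb of a protein-coding TSS. The regions and lists were chosen with earlier results of these data known. No statistical test was run, since the calls chose the regions. Intervals are exact binomial at 95% and cover counting error only. Alternatives were other thresholds, equal numbers of peaks, other merging, overlap and distance rules, another motif window, other scalings and each library left out.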

Additional observations from a re-analysis of the deposited data

How the results depend on the processing

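No paired analysis was possible because the values come from no test. The number of Input-only regions was 1191 with the 75336 strongest peaks of each library, against 1837, and it stayed within 1.5 times at a q-value threshold of 0.01, with a merge distance of 500 bp and with 50% reciprocal overlap. With 1 library left out it ran from 2300 to 21813. The highest number came without Input replicate 2, where the rule asked for a peak in Input replicate 1 alone. Without Input replicate 1 the number was 4160. Leaving out Myc replicate 1 gave 2779, and leaving out Myc replicate 2 gave 2895. The promoter share was 23.3% with equal numbers of peaks and 10% with a promoter of 1 kb, and ran from 20.3 to 21.7% with a library left out. The share with a Myc or PCM1 peak within 1 kb was 18.1% with equal numbers of peaks, 11.7% with the merge distance of 500 bp (which joins near peaks) and 69.4% within 5 kb, and ran from 20.9 to 24.9% with a library left out. The number nearest to a marker gene was 6 of 1191 with equal numbers of peaks. With a library left out it ran from 20 of 2779 to 202 of 21813, so it moved with the number of regions. At least 1 motif was found in 45.7% of the 100-bp windows. The share passing at the depth of Myc replicate 1 was 83.6% from Input replicate 1 alone or the smaller of both. Chosen after seeing the data, the NKX2-5, GATA and CTCF differences kept their direction under the other threshold, equal numbers of peaks, the merge distance, reciprocal overlap, each library left out and the 100-bp window. The NKX2-5 difference from all merged regions, 4.84 percentage points, was 7.94 with equal numbers of peaks, 2.91 without Input replicate 1 and 2.64 without Input replicate 2. The GATA difference, 3.12 points, was 0.821 and 0.885 without Input replicates 1 and 2.

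Depth limits what these lists can show. Input replicate 1 was 3.86 times as deep as Input replicate 2, no test was made between the groups of 2 libraries, and sites below the threshold of a shallow library leave no value at all.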
